A study of Mus musculus with 18 samples.

Results

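The regions described here are the 13600 accessible regions of mouse spleen B and T cells that lie within 1 kb of either end of a protein-coding or long non-coding RNA (lncRNA) gene. They were picked by position alone, from the gene ends listed for GRCm38.p6, which shares its coordinates with mm10, the build of the deposited regions. They make up 49.6% of the 27392 nuclear regions. The other 13792 regions lie inside genes away from their ends (8757) or between genes (5035), and 4 mitochondrial regions were left out. Of these 13792, 1405 (10.2%) lay within 1 kb of another annotated start, so that the set compared with gene ends holds such sites too. The 1 kb limit cuts through a continuum: 233 nuclear regions lay 900 to 1000 bp from an end and 238 lay in the next 100 bp.

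Open chromatin was read by ATAC-seq, in which a transposase cuts DNA where no nucleosome or bound protein blocks it, so that more reads mean a more accessible site. The nuclei came from frozen spleen sections of wild-type C57BL/6J mice and were cut out by laser after tagmentation in the tissue and staining for the cell type. The 4 groups were B patches (n = 5 libraries) and T patches (n = 5), each library from 10 pieces of tissue that held about 1000 nuclei together, and B and T captures of 100 single nuclei (n = 4 libraries each). The labels call the libraries of a group technical replicates and tie none to an animal. Which markers were stained, and how many mice were used, is not stated in them, so every p-value measures only the spread between these libraries. A patch is a piece of tissue that can hold neighbouring cells. Since each library is a bulk of nuclei, fewer cells of a type and less accessibility per cell cannot be told apart in any comparison given here.

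The ends of genes are where transcription begins and stops. At the start end lies the promoter, where the polymerase and general factors assemble on DNA that is usually free of nucleosomes in every cell that uses the gene. Many mammalian promoters, above all those of genes used by most cells, sit in stretches rich in the dinucleotide CpG (CpG islands), while promoters of tissue-restricted genes are often poor in CpG. Enhancers, the switches that give cell types much of their own pattern, lie mostly away from promoters, inside genes or between them.

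Most of the regions lay at or near the start of a gene. Of the 13600, 10674 (78.5%) lay within 1 kb of a gene's start, 496 (3.65%) only near a 3′ end, and for 2430 (17.9%) the strand of the gene was not in the table. The nearest gene was protein-coding for 12012 regions and a lncRNA gene for 1588, and 3563 regions (26.2%) lay at ends of 2 or more genes. Of 21887 protein-coding genes in the table, 9737 (44.5%) had such a region, as had 1941 of 12727 lncRNA genes (15.3%). The regions were wider than the rest, with a median of 283 bp against 156 bp, and 7303 of them (53.7%) lay over an end.

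The promoters of 7 genes show the range of DNA involved. Each line gives 300 bases of RefSeq sequence (GRCm38.p6), from 250 before the annotated start to 50 after it, 5′ to 3′ on the strand of the gene, with each CpG in capitals. Atp2b1, which encodes a calcium pump of the plasma membrane (chr10:98914392-98914691, plus strand), and Sp1, which encodes a transcription factor that binds GC-rich promoters (chr15:102406066-102406365, plus strand), are shown because their regions were among the 10 of highest mean level over the 4 groups. Cr2, the complement receptor that works beside the B cell receptor (chr1:195176670-195176969, minus strand), Bank1, a scaffold of B cell receptor signalling (chr3:136326017-136326316, minus strand), and Tlr9, the endosomal receptor for unmethylated CpG DNA (chr9:106222348-106222647, plus strand), are shown because their regions were higher in B patches. Themis, a signalling protein of T cell development (chr10:28668145-28668444, plus strand), and Cd3g, a chain of the T cell receptor complex (chr9:44980382-44980681, minus strand), are shown because their regions were higher in T patches. Tlr9 was chosen after its values were seen.
Atp2b1: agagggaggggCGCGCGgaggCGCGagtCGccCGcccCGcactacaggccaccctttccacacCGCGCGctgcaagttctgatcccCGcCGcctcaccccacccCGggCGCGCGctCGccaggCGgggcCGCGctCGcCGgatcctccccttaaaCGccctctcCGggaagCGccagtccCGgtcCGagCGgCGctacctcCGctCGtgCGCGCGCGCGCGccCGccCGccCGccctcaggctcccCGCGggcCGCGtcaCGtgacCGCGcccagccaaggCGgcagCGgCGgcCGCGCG
Sp1: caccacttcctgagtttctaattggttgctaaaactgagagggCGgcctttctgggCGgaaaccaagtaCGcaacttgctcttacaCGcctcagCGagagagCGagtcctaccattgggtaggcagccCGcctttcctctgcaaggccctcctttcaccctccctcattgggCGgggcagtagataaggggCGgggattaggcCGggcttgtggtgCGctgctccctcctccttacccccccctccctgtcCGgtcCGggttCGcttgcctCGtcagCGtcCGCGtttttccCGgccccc
Cr2: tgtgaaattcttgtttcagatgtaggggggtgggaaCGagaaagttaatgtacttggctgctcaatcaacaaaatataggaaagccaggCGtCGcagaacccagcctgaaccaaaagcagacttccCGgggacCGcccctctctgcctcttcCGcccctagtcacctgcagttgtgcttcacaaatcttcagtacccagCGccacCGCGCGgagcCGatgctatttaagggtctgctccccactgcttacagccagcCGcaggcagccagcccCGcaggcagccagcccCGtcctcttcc
Bank1: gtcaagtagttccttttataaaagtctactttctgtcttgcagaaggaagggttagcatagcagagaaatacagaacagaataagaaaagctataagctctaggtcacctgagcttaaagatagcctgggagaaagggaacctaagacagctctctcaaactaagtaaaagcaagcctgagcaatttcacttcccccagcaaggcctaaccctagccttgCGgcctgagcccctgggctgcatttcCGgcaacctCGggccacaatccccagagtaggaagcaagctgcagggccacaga
Tlr9: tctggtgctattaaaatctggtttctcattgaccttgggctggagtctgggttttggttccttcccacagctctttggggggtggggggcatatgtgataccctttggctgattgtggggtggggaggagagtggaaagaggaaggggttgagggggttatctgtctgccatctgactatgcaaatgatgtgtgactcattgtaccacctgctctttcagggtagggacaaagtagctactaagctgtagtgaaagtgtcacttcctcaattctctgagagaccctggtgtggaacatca
Themis: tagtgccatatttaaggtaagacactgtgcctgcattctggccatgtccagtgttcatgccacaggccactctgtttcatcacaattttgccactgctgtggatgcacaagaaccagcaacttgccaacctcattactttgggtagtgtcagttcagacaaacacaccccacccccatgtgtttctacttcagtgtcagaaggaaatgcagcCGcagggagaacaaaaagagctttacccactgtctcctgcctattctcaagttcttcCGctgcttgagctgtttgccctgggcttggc
Cd3g: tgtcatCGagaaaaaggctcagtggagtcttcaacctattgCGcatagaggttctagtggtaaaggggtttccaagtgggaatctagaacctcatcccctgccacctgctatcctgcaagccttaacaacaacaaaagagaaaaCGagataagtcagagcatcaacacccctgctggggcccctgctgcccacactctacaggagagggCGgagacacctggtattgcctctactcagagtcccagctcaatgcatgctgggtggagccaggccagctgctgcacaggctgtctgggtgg
The window of Atp2b1 holds 54 CpG, that of Sp1 19 and that of Cr2 14. The windows of Cd3g, Bank1 and Themis hold 4, 3 and 2, and that of Tlr9 holds 0.

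The libraries differed in depth. Total counts were 2193837 to 7343204 in patches and 319481 to 1076765 at 100 nuclei, and mitochondrial regions took 16.1% to 33.6% of counts in patches and 24.3% to 45.8% at 100 nuclei. Levels are therefore given as nuclear CPM, counts per 1000000 nuclear counts. The libraries numbered 2 stood apart among the patches, and T libraries 3 and 4 among those of 100 nuclei, by how few regions held reads. Marker sums are given as a description, not as an independent check of the labels, since the marker lists were drawn up with results of these libraries known. Summed over the 40 gene-end regions at 23 B cell identity genes, B patches held 1797 to 2472 nuclear CPM and T patches 732 to 904, and at 100 nuclei B libraries held 1581 to 2949 and T libraries 8.27 to 1263. Over the 38 regions at 26 T cell identity genes the sums were 684 to 1117 in B patches and 1716 to 2413 in T patches, and 659.8 to 1272 and 1541 to 2382 at 100 nuclei. The groups did not overlap in either sum at either size, and Cd4, Lef1 and Actb, among the genes looked for, had no gene-end region.

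Reads at gene ends took about the same share of every library. The share of nuclear counts was 68.7%, 66.3%, 71.3%, 69.2% and 73.2% in B patch libraries 1 to 5, and 71.0%, 67.4%, 73.4%, 68.7% and 72.4% in T patch libraries 1 to 5. It was 71.0%, 69.1%, 69.0% and 69.6% in B libraries 1 to 4 of 100 nuclei, and 71.5%, 71.2%, 69.0% and 66.2% in T libraries 1 to 4. All 4 groups overlapped. The means were 69.7% ± 2.62, 70.6% ± 2.49, 69.7% ± 0.896 and 69.5% ± 2.45 (SD), so that B and T patches differed by -0.87 points and patches differed from 100 nuclei by 0.592 points, less than 1 SD in each case. Per kb of region, gene ends held 1.15 to 1.62 times the counts of other regions. Start regions took 82.0% to 83.7% of the gene-end counts in the 18 libraries, and per kb, in B patches, they held 149 ± 6.47 nuclear CPM (SD, n = 5) against 120 ± 7.19 at regions near a 3′ end only.

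**Figure D1:**
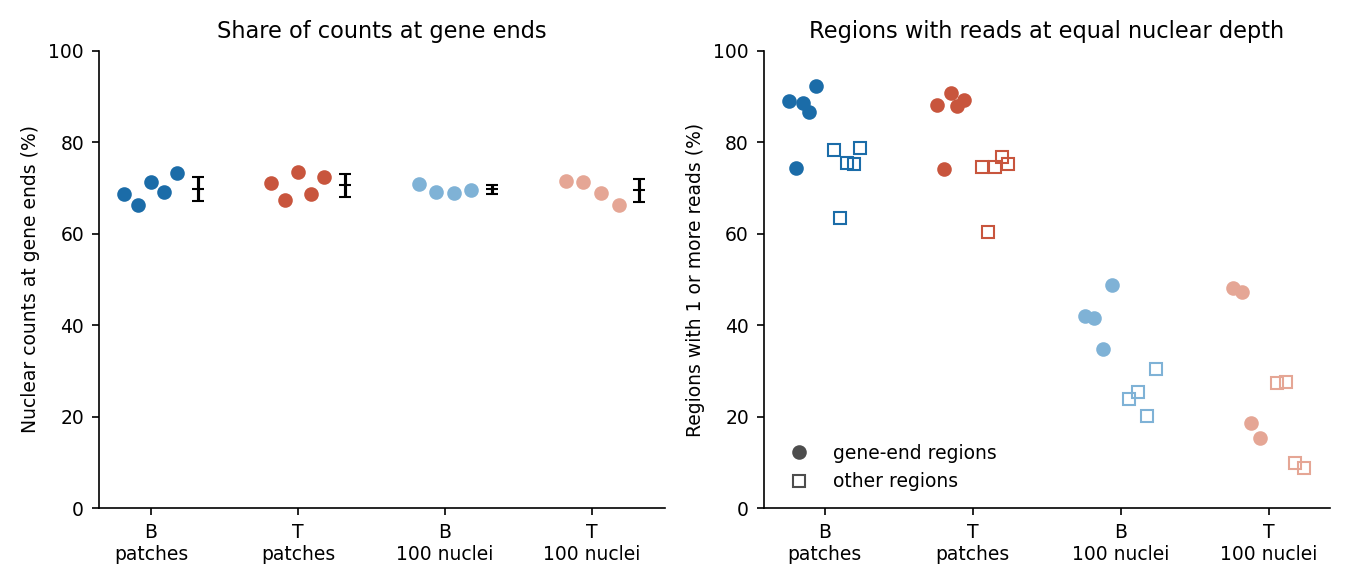
Left, percent of nuclear counts in gene-end regions, 1 point per library, with the mean and SD of each group in black. Right, percent of gene-end regions (circles) and of other nuclear regions (squares) with at least 1 read after every library was thinned to 241786 nuclear counts. The share of counts stays between 66.2% and 73.4%, while gene-end regions with reads make up 74.2% to 92.3% in patches and 15.2% to 48.8% at 100 nuclei.

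The same share of reads was spread over far fewer gene ends at 100 nuclei. With every library thinned to 241786 nuclear counts, 89.0%, 74.4%, 88.6%, 86.5% and 92.3% of gene-end regions held reads in B patch libraries 1 to 5, and 88.2%, 74.2%, 90.7%, 87.9% and 89.3% in T patch libraries 1 to 5. At 100 nuclei they were 41.9%, 41.5%, 34.7% and 48.8% in B libraries 1 to 4, and 48.1%, 47.4%, 18.6% and 15.2% in T libraries 1 to 4. No library of 100 nuclei reached any patch library. The means were 86.1% ± 6.89 in patches and 41.8% ± 5.76 at 100 nuclei for B cells, and 86.1% ± 6.72 and 32.3% ± 17.8 for T cells (SD). Where a gene-end region held reads, the median count at this depth was 8 to 11 in patches, 19 to 27 in B libraries of 100 nuclei and 20, 20, 54 and 66 in T libraries 1 to 4. The share of other regions with reads was lower in every library, at 60.4% to 78.8% in patches and 8.87% to 30.5% at 100 nuclei.

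Few gene ends were read in all libraries. Reads in all 18 libraries were found at 313 gene-end regions (2.30%) and 51 other regions (0.370%), at the depth deposited. Reads in all 10 patch libraries were found at 8502 gene-end regions (62.5%) and 5276 other regions (38.3%). In none of the 8 libraries of 100 nuclei was a read found at 1837 gene-end regions (13.5%) and 3337 others (24.2%). The counts carry no stated molecular identifiers, so a region read many times can stem from few molecules.

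The regions gathered around the start. For 10479 of them a start of a RefSeq promoter window lay within 1 kb (the 10674 given above were counted from the gene ends in the gene table), and for these the median distance of the region's centre from that start was 6.5 bp downstream (quartiles -81.5 and 160 bp), and 66.4% of the centres lay within 200 bp. Regions centred 100 to 200 bp before the start had the highest median level of the 100 bp steps within 600 bp of the start, at 65.9 nuclear CPM in B patches, 67.0 in T patches, 58.2 in B and 51.4 in T at 100 nuclei (1031 regions). These levels are per region, not per length. At 300 to 400 bp after the start the medians were 11.3, 12.5, 4.39 and 1.03 (564 regions). The medians of B and T patches lay within 3 nuclear CPM of each other at every step within 600 bp.

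**Figure D2:**
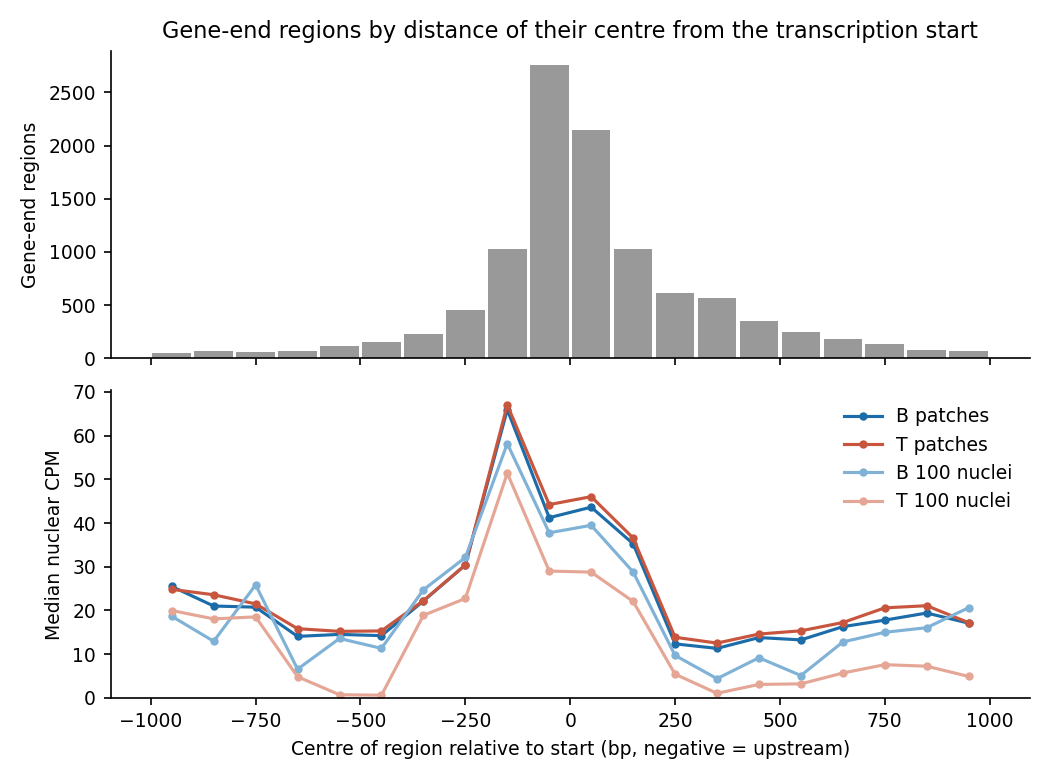
Top, number of gene-end regions by the distance of their centre from the nearest annotated start, in steps of 100 bp (negative is upstream). Bottom, median nuclear CPM of the regions in each step, averaged over the libraries of each group. The regions peak just before the start, with 2754 centred within 100 bp upstream, and the highest medians near the start lie 100 to 200 bp upstream in all 4 groups.

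Promoter windows over the regions were rich in CpG. Each region was given the window of its nearest start, which overlapped it for 7417 of the 13600. Of the 32851 promoter windows of RefSeq, 7121 were counted as over a region in this way. Their median ratio of observed to expected CpG was 0.808, against 0.284 in the remaining 25730. The remaining windows can include a further window under the same region. GC content was 62.3% and 50.3%. GGGCGG, the GC box that Sp1 binds, was found on either strand in 70.4% of windows over a region and 35.7% of all windows. CCGGAAGT, a form of the ETS factor motif that includes CpG, was found in 9.49% and 3.89%, and the 10-letter palindrome that NRF1 binds in 2.58% and 0.971%. TATAAA, the TATA box, was found in 5.70% and 13.6%, AGATAA, bound by GATA factors, in 5.28% and 11.2%, and CCAAT, bound by NF-Y, in 39.7% and 37.4%. The first 3 of these motifs hold a CpG themselves. A match says only that these letters are in the window.

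Between B and T patches few gene ends differed. Of 13183 gene-end regions that passed the filter on low counts (417, or 3.07%, did not), 112 passed an adjusted p of 0.05, or 0.850%, where 2.27% of all 25712 regions tested passed. B patches were higher at 59 and T patches at 53 (0.448% and 0.402%, where 1.22% and 1.05% of all regions tested passed). With library size alone as the scale the 112 became 128, 47 higher in B and 81 higher in T, and the median log2 fold change of all regions moved from -0.03 to -0.19. Inside genes away from their ends 284 of 8139 passed (3.49%), and between genes 185 of 4386 (4.22%). Among these, 1364 lay within 1 kb of another annotated start, and 15 of them passed (1.10%). The 5 B and 5 T libraries did not overlap at 487 gene-end regions (3.69%), where they did not overlap at 8.07% of all regions tested. Of the 487, 234 were higher in B and 253 in T, where 4.32% and 3.75% of all regions tested were. At an unadjusted p of 0.05 the gene-end regions gave 838 (6.36%), where 12.7% of all regions tested passed. The median size of the log2 fold change was 0.40 at gene ends and 0.87 elsewhere.

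The count of calls depended on single libraries. It was 56, 60, 55 or 73 without B patch library 1, 3, 4 or 5, and 53 or 69 without T patch library 3 or 4. Without both libraries numbered 2, an alternative chosen after seeing the data, it was 252. With the 10 patch libraries DESeq2 called 468, and an edgeR fit of all 18 libraries together called 0 (103 at an unadjusted p of 0.05). An edgeR fit of the 10 patch libraries with a term for the replicate number called 49. The genes named here are those of the edgeR fit of the 10 patch libraries alone. Of the 112, 104 had groups that did not overlap, 109 were also called by DESeq2, and 40 (24 higher in B, 16 in T) were called in all 10 fits with 1 library left out.

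The share called was also counted by abundance, in groups within which level and width were not matched further. With all tested regions cut into 4 equal groups by abundance, lowest first, 0.183%, 0.310%, 1.17% and 1.20% of gene-end regions passed, against 0.708%, 2.16%, 7.17% and 9.93% of the others. The median size of the log2 fold change was 0.72, 0.62, 0.43 and 0.25 at gene ends and 0.99, 1.03, 0.82 and 0.41 elsewhere. By distance, 0.894% of regions over an end passed, 0.570% of those up to 500 bp away and 1.35% of those between 500 and 1000 bp, against 2.38% over the next 1 kb and 3.94% farther out. These are counts over regions, which are not independent, and no test was made over them.

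**Figure D3:**
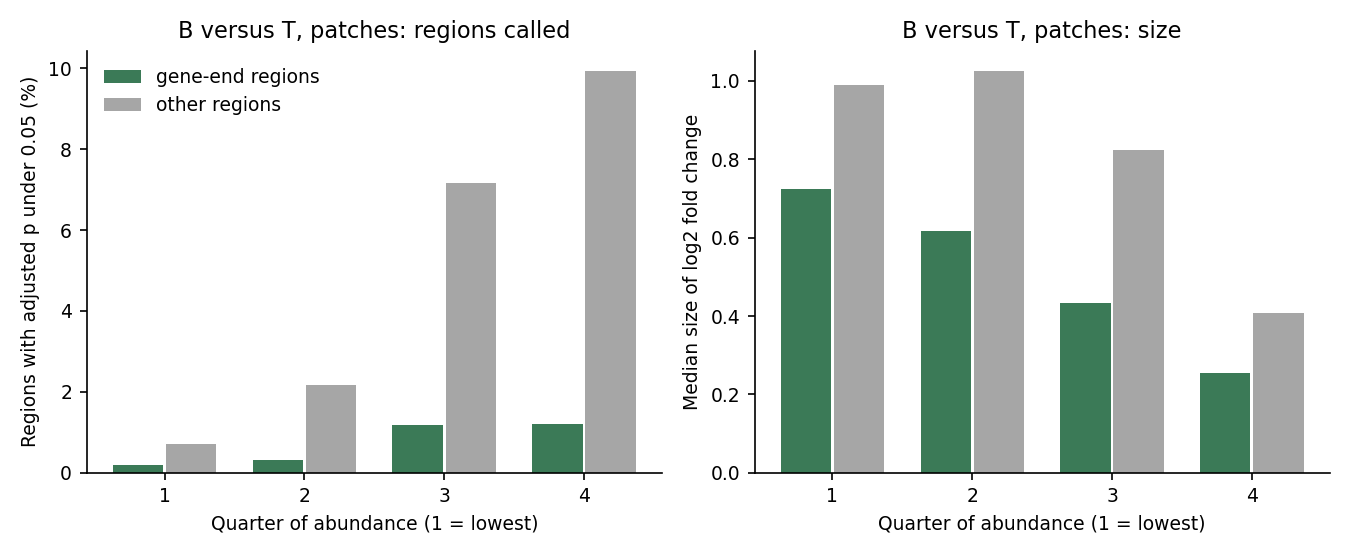
Regions tested between B and T patches, cut into 4 groups of equal number by abundance (1 is the lowest). Left, percent with an adjusted p under 0.05 at gene ends (green) and elsewhere (grey); right, the median size of their log2 fold change. In the highest group 1.20% of gene-end regions and 9.93% of other regions were called.

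Among the gene ends the share called varied with the kind of end and gene. Of the regions near a start 71 of 10359 passed (0.685%), and of those near a 3′ end only 13 of 472 (2.75%). Where a protein-coding gene was nearest 75 of 11666 passed (0.643%), and where a lncRNA gene was nearest 37 of 1517 (2.44%). Regions at ends of 2 or more genes passed at 16 of 3476 (0.460%), those at the end of 1 gene at 96 of 9707 (0.989%). Whether these shares differ was not tested, since regions share genes and libraries.

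At gene ends, libraries of different cell types were nearly as alike as libraries of one type. Pearson's r over the 13600 gene-end regions, on log2(nuclear CPM + 10), averaged 0.796 over the 20 pairs of patch libraries of one type and 0.762 over the 25 pairs of a B and a T library, a difference of 0.0336. Over the other 13792 regions the averages were 0.679 and 0.464, a difference of 0.215. At 100 nuclei the differences were 0.00723 at gene ends and 0.0540 elsewhere. The values describe these libraries, which share depth and region width.

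The gene-end regions of highest mean level over the 4 groups had small fold changes between B and T patches. Ranking by that mean itself favours regions that are high in every group. The 10 with the highest mean level were all over the start of a gene: Cic, a repressor; Sp1; Lnpep, an aminopeptidase; Agpat1, an acyltransferase of phospholipid synthesis; Cactin, a splicing factor; Khsrp, an RNA-binding protein; Atp2b1; Fkbp2, a prolyl isomerase; Tpst2, a sulfotransferase; and Mbd3, a subunit of the NuRD complex. Their regions were 712 to 1343 bp wide, and their log2 fold changes between B and T patches ran from -0.20 to 0.34. At Atp2b1 (chr10:98913889-98915232) the B patches had 494, 584, 614, 473 and 552 nuclear CPM in libraries 1 to 5 and the T patches 589.7, 651, 666, 488 and 493. These groups overlapped, with a log2 fold change of -0.08 ± 0.20 (SE; adjusted p = 0.963). At Sp1 (chr15:102405275-102406434) the values were 647, 492, 663, 894 and 764 in B patches and 649.8, 318, 639.9, 397 and 737 in T patches, and they overlapped too (0.34 ± 0.26, adjusted p = 0.734).

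Gene ends of B cell identity genes were higher in B patches. Of 38 tested regions at these genes 10 passed, all higher in B, at 9 genes, where 1.22% of all regions tested passed as higher in B, with a median log2 fold change of 1.64 against -0.03 over all regions tested. The direction of the B cell and T cell lists, given how they were drawn up, is no independent evidence. At the start of Cr2 (chr1:195176439-195176934), the CpG-bearing promoter shown above, B patches had 143, 91.7, 129.8, 116 and 81.2 nuclear CPM and T patches 36.1, 19.2, 8.31, 14.1 and 6.15. Every B library lay above every T library, at a log2 fold change of 2.78 ± 0.45 (SE; adjusted p = 0.00382). At Bank1 (chr3:136325843-136326339), whose promoter holds 3 CpG, B patches had 109.5, 76.7, 88.1, 101 and 70.9 and T patches 14.1, 1.16, 0.489, 20.9 and 13.7, again apart (3.15 ± 0.67, adjusted p = 0.0156). Near Ebf1, a founding transcription factor of the B lineage, a region 678 bp from the end (chr11:44617105-44617422) had 136, 149.7, 115, 136 and 109 in B patches and 14.4, 3.48, 4.24, 8.75 and 46.4 in T patches. T library 5 was the highest of its group and still below every B library (3.02 ± 0.55, adjusted p = 0.00674).

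Ms4a1, which encodes the surface protein CD20, had 2 called regions. The one over its end (chr19:11266050-11266484) had 96.4, 111, 79.2, 108 and 78.1 nuclear CPM in B patches and 14.8, 4.06, 4.56, 0 and 20.7 in T patches (3.38 ± 0.68, adjusted p = 0.0113). The other, 423 bp away inside the gene (chr19:11266572-11266709), had 22, 24.1, 7.39, 21.8 and 17.4 in B patches and no read in any T patch library. Against 3 counts over the T libraries, the level that a count of 0 allows, it was at least 105-fold higher in B (adjusted p = 0.011; the bound covers counting error only). Outside the list, at Pkib, an inhibitor of protein kinase A (chr10:57631839-57632232), B patches had 83.6, 139, 130.3, 123 and 97.3 and T patches 0, 0, 10.3, 20.5 and 10.6. No read was found there in T libraries 1 and 2, and every T library lay below every B library (3.74 ± 0.74, adjusted p = 0.00989).

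Most other regions named here as higher in B gave way when a library was left out. At Fcer2a, the low-affinity IgE receptor CD23 (chr8:3694158-3694639), B patches had 46, 55.8, 84.2, 60 and 40.7 and T patches 0, 16.8, 3.75, 4.37 and 6.15. The groups were apart (3.30 ± 0.75, adjusted p = 0.023), but the call was lost without B patch library 1, 3 or 4 or T patch library 3, 4 or 5 (adjusted p = 0.0503 to 0.0898). Outside the list, at Plek, a substrate of protein kinase C (chr11:17008522-17008865), the values were 54.5, 101, 43.8, 65.8 and 37.4 and 10.5, 0, 4.73, 11.1 and 9.5 (3.02 ± 0.69, adjusted p = 0.0231), and the call was lost without B patch library 1 or 4 or T patch library 3 (adjusted p = 0.0586 to 0.0677). At 100 nuclei a single B library and 3 T libraries had reads at Plek, with means of 0.625 and 59.3 nuclear CPM, the other way round and with no call. Pou2af1, a coactivator of octamer factors, Cd83, Cd37 and Cxcr5, the chemokine receptor that draws B cells to follicles, were higher in B too, at log2 fold changes of 1.50, 1.72, 1.09 and 1.86 (adjusted p = 0.0117, 0.0202, 0.0267 and 0.0394). The Pou2af1 call held in all 10 fits with 1 library left out (adjusted p = 0.00921 to 0.0434). Leaving out B patch library 1 or T patch library 1, 3 or 4 ended the Cd83 call (adjusted p = 0.0512 to 0.0815). That of Cd37 ended without B patch library 1, 3 or 4 or T patch library 1, 3, 4 or 5 (0.0554 to 0.0822), and that of Cxcr5 without any one of those or B patch library 5 (0.0569 to 0.185). The groups overlapped at that Cxcr5 region, where the lowest B patch library had 32.7 nuclear CPM and the highest T patch library 35.4. Another region at an end of Cxcr5, also within 1 kb of Bcl9l (chr9:44510890-44511072), lay the other way, at 1.07 to 46.9 in B patches and 49.8 to 89.3 in T patches, and did not pass (-1.05 ± 0.56, adjusted p = 0.474). At Scimp, an adaptor of MHC class II signalling that is not on the list (chr11:70812285-70812640), B patches had 57.1, 33.3, 29.3, 67.3 and 30.2 and T patches 5.25, 0, 7.82, 2.69 and 3.35 (3.43 ± 0.79, adjusted p = 0.0253). This call ended without B patch library 1 or 4 or T patch library 4 or 5 (adjusted p = 0.0576 to 0.101).

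Some defining B cell genes did not pass at their ends. Beside Cd79a, a signalling chain of the B cell receptor (chr7:24897241-24897462), B patches had 36.4, 26.3, 55.4, 101 and 51.7 and T patches 11.5, 0, 23.8, 8.75 and 1.96. The groups were apart but the spread within B patches was wide (2.51 ± 0.78, adjusted p = 0.104). For Pax5, the factor that maintains B cell identity, the region closest to an end had a log2 fold change of 1.54 ± 0.62 (SE; adjusted p = 0.249). Of the 38 regions 32 had a positive log2 fold change.

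Outside the lists, 2 regions were picked after their values were seen because of their small p. At Napsa, which encodes the aspartic protease napsin A (chr7:44572145-44572673), B patches had 225, 203, 145, 211 and 119 nuclear CPM and T patches 20.7, 26.1, 21.7, 52.5 and 21.2 (2.68 ± 0.33, adjusted p = 0.000826, the smallest of the 112). At Tlr9 (chr9:106222234-106222709), whose promoter holds 0 CpG, B patches had 91.3, 168, 145, 128 and 93.6 and T patches 11.2, 28.5, 7.01, 32.3 and 20.7 (2.69 ± 0.41, adjusted p = 0.00264). Both were called in all 10 fits with 1 library left out.

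MHC class II genes, whose products present peptides to helper T cells, were higher in B patches at their ends as a group. Of 15 tested regions 5 passed, all higher in B, where 1.22% of all regions tested passed as higher in B, with a median of 1.82 against -0.03 over all regions tested, and 14 of the 15 were positive. At the start of H2-DMb2, a chain of the complex that loads peptides (chr17:34142961-34143390), B patches had 197, 161, 120, 161 and 139.7 nuclear CPM and T patches 18.7, 40.1, 41.4, 24.9 and 56.7. The groups were apart (2.10 ± 0.33, adjusted p = 0.00356). Cd74, the invariant chain that escorts class II molecules, had 229.5, 139, 252, 227 and 151 in B patches and 34.5, 5.81, 54.9, 65.9 and 55.3 in T patches (2.19 ± 0.43, adjusted p = 0.00932). At H2-Aa, the alpha chain of I-A (chr17:34287625-34288050), the values were 173, 154, 174, 173 and 137 and 62.1, 0, 35.4, 44.7 and 24 (2.27 ± 0.57, adjusted p = 0.0375). That call was lost without B patch library 1, 3, 4 or 5 or T patch library 3, 4 or 5 (adjusted p = 0.0664 to 0.0938). At H2-Eb1 and H2-Ab1, the beta chains of I-E and I-A, the log2 fold changes were 2.64 ± 0.60 and 1.37 ± 0.34 (SE; adjusted p = 0.0219 and 0.0382). The first call ended without B patch library 1, 4 or 5 or T patch library 3 or 5 (0.0516 to 0.0665), the second in 8 of the 10 fits, all but those without B patch library 2 or T patch library 5 (0.0544 to 0.112). Summed over the class II regions, B patches held 1174 to 1651 nuclear CPM and T patches 444 to 757. Ends of MHC class I and antigen processing genes gave 0 calls of 23 in edgeR and 0 in DESeq2 (1 at an unadjusted p of 0.05), with a median of -0.15. In edgeR 2.27% of all regions tested and 0.850% of the gene-end regions passed, so that 0 of 23 is near these shares and is no result about the list.

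**Figure D4:**
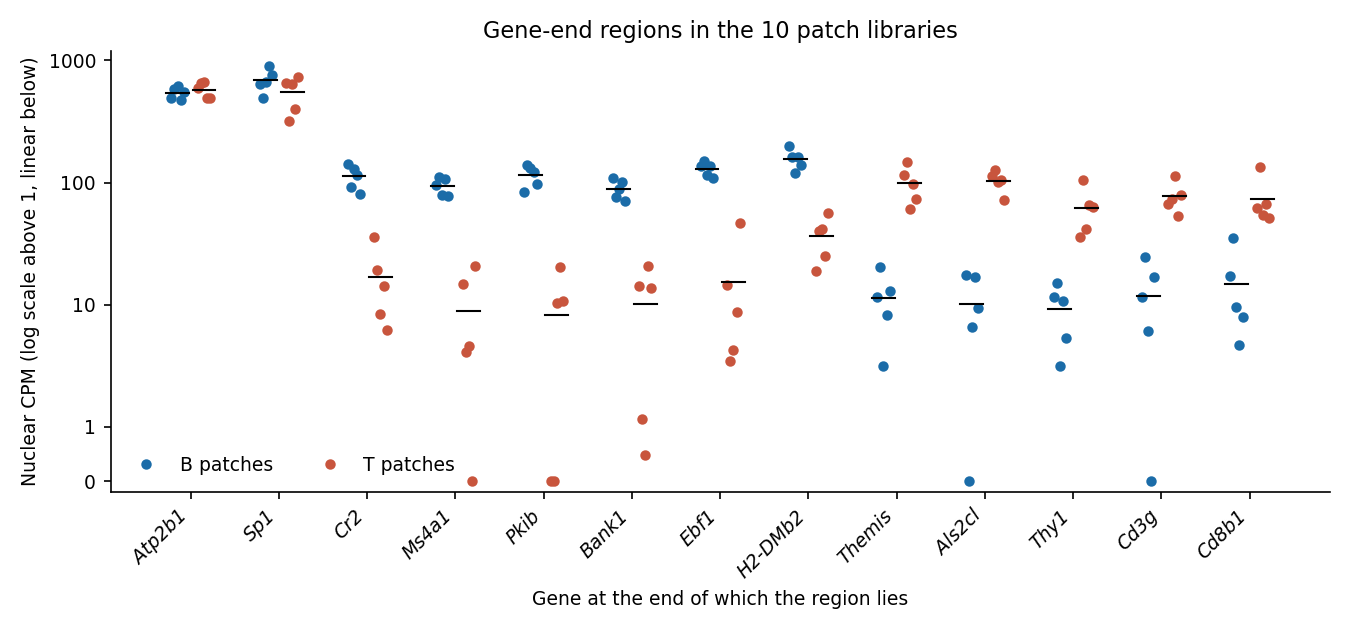
Nuclear CPM of 13 gene-end regions in the 5 B patch (blue) and 5 T patch (red) libraries; bars are means, and the axis is logarithmic above 1 and linear below. Atp2b1 and Sp1 overlap between the cell types, the 6 regions from Cr2 to H2-DMb2 are higher in every B library, and the 5 from Themis to Cd8b1 are higher in every T library.

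Gene ends of T cell identity genes were higher in T patches. Of 38 tested regions 7 passed, all higher in T, at 7 genes, where 1.05% of all regions tested passed as higher in T, with a median of -1.87 against -0.03 over all regions tested (negative is higher in T). At the start of Themis (chr10:28668242-28668652) B patches had 11.5, 20.4, 3.17, 8.15 and 13 nuclear CPM and T patches 114, 149, 60.5, 97.6 and 73.5. Every T library lay above every B library (-3.14 ± 0.47, adjusted p = 0.00241). At Thy1, the surface glycoprotein CD90 (chr9:44043247-44043494), the values were 11.5, 15, 3.17, 10.8 and 5.37 in B patches and 35.8, 106, 41.9, 65.3 and 63.2 in T patches (-2.76 ± 0.55, adjusted p = 0.0111). Themis and Thy1 were called in all 10 fits with 1 library left out. Outside the list, at Als2cl, a homologue of the guanine exchange factor alsin (chr9:110880063-110880360, also within 1 kb of Tmie), B patches had 17.5, 0, 6.6, 16.9 and 9.3 and T patches 113, 126, 102, 105 and 71.5, and this call held in all 10 fits as well (-3.28 ± 0.60, adjusted p = 0.00674).

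Receptor genes of the list were called with less margin. At the start of Cd3g (chr9:44980348-44980557) B patches had 11.5, 24.7, 6.07, 0 and 16.9 and T patches 67.3, 73.7, 114, 53.5 and 79.4. The groups were apart (-2.75 ± 0.68, adjusted p = 0.0368), and the call was lost without B patch library 1, 3 or 5 or T patch library 1, 3, 4 or 5 (adjusted p = 0.0578 to 0.13). At Cd8b1, the beta chain of the CD8 coreceptor (chr6:71322511-71322876), the values were 17.3, 34.9, 9.5, 4.66 and 7.85 and 61.4, 133, 54.1, 66.6 and 51.7 (-2.32 ± 0.53, adjusted p = 0.0224), lost without B patch library 3, 4 or 5 (adjusted p = 0.0554 to 0.0656). At Cd27, a costimulatory receptor of the TNF receptor family (chr6:125237001-125237116), they were 13, 0, 17.1, 6.41 and 9.51 and 39.1, 174, 17.9, 76.7 and 47. T library 2 was far above the rest there, and the call held in 1 of the 10 fits with a library left out (-2.80 ± 0.73, adjusted p = 0.0459), being lost without B patch library 1, 3, 4 or 5 or T patch library 1, 2, 3, 4 or 5 (adjusted p = 0.0501 to 0.143). At Cd5, a receptor that damps T cell receptor signals, the log2 fold change was -1.93 ± 0.47 (SE; adjusted p = 0.0351). Leaving out B patch library 1, 3 or 4 or T patch library 1, 3, 4 or 5 ended that call (0.0535 to 0.107).

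A pair of genes outside the list had the same direction. At Sema4f, a semaphorin (chr6:82939608-82939851), B patches had 7.7, 1.61, 5.54, 9.32 and 6.61 nuclear CPM and T patches 41.7, 28.5, 55.9, 42.4 and 48.1. The groups were apart (-2.77 ± 0.65, adjusted p = 0.027), and the call ended without B patch library 1, 3 or 5 or T patch library 1, 3, 4 or 5 (adjusted p = 0.0558 to 0.108). At Mboat1, a lysophospholipid acyltransferase (chr13:30136306-30136587), the values were 5.26, 7.51, 3.17, 8.15 and 4.55 and 15.1, 102, 37.8, 33.6 and 40.2, with T library 2 highest (-2.96 ± 0.67, adjusted p = 0.022). This call ended without B patch library 1, 3 or 5 or T patch library 2 or 3 (adjusted p = 0.0552 to 0.0631).

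Other T cell genes did not pass at their ends with all 10 libraries. At the start of Cd8a (chr6:71373366-71373583) B patches had 8.08, 19.9, 8.71, 0.874 and 3.93 and T patches 21, 74.9, 34.5, 48.4 and 66.8 (-2.60 ± 0.69, adjusted p = 0.0511), and the region passed without B patch library 2 (adjusted p = 0.0207). At Bcl11b, a transcription factor that holds T cells to their lineage (chr12:108003884-108004264), the values were 11.8, 42.4, 11.1, 13.7 and 11.6 and 53.8, 9.29, 82.3, 126 and 90. Libraries 2 of both types were out of place, the B one high and the T one low (-2.08 ± 0.58, adjusted p = 0.0613). It passed without B patch library 2 or T patch library 2 (adjusted p = 0.00753 to 0.0221). Tcf7, a transcription factor of T cells, and Cd3e, another chain of the receptor complex, had end regions with log2 fold changes of -2.51 ± 0.96 and -3.08 ± 1.42 (SE; adjusted p = 0.216 and 0.357).

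One gene carried regions of opposite direction. At Irgc1, of the immunity-related GTPases, the region over an end of the gene (chr7:24445544-24445892) had 226, 201, 129.5, 125 and 142 nuclear CPM in B patches and 29.2, 0, 39.4, 40.7 and 60.1 in T patches. The region 649 bp outside its other end (chr7:24431048-24431270) had 2.25, 0, 4.75, 4.08 and 9.09 in B patches and 39.7, 99.9, 28.5, 25.6 and 40.5 in T patches. The log2 fold changes were 2.24 ± 0.57 and -3.41 ± 0.81 (SE; adjusted p = 0.0403 and 0.0282). The first call was lost without B patch library 1, 2, 3, 4 or 5 or T patch library 1, 3 or 4 (adjusted p = 0.0549 to 0.118), the second without B patch library 1, 3 or 4 or T patch library 1, 2, 3 or 5 (adjusted p = 0.057 to 0.0763).

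At 3′ ends 13 regions were called, 7 higher in B and 6 higher in T. Those named next were all higher in B and included 1 at Rfc3, a subunit of the replication clamp loader. It lay 199 bp inside the gene (chr5:151643016-151643199) and had 44.3, 89.6, 42.2, 32.6 and 14.5 nuclear CPM in B patches and 2.63, 0, 1.14, 0.336 and 5.59 in T patches, with the T libraries near 0 (4.39 ± 0.91, adjusted p = 0.0132, called in all 10 fits with 1 library left out). Cd9, a tetraspanin, Calhm2, a channel, and Man2a1, a Golgi mannosidase, were higher in B near their 3′ ends by 2.23, 2.12 and 2.08 on the log2 scale (adjusted p = 0.0280, 0.0284 and 0.0285). The Cd9 call ended without B patch library 1, 3 or 4 or T patch library 3 or 4 (0.0521 to 0.100), that of Calhm2 without any one of those or B patch library 5 (0.0528 to 0.111). The Man2a1 call ended without B patch library 1, 2, 3 or 4 or T patch library 1, 3 or 5 (0.0531 to 0.0885). Of the 112 called regions 37 lay nearest a predicted gene with no name of its own.

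Ends of genes that most cells use gave 1 call in edgeR over 5 lists. Genes of cytosolic ribosomal proteins gave 0 of 98 tested regions (median log2 fold change -0.08), of the proteasome 0 of 35 (-0.12), of the spliceosome and SR proteins 0 of 60 (-0.16), of chaperones 0 of 33 (-0.08) and of translation factors 1 of 62 (-0.11), beside 2.27% called and a median of -0.03 over all regions tested. Over all tested gene-end regions 0.850% were called, with a median of -0.05. In lists of these sizes 0 or 1 call is near that share and is no result about the list. DESeq2 called 0, 0, 2, 0 and 3 of them, and an unadjusted p of 0.05 was passed by 1, 2, 3, 0 and 4. Under library size alone 1 spliceosome region passed. The smallest adjusted p-values of edgeR in the first 4 lists were 0.33, 0.256, 0.0632 and 0.546. The call among the translation factors lay 330 bp inside Map4k1, a kinase of lymphocyte receptor signalling, and within 1 kb of Eif3k (chr7:28982380-28982940). It had 256, 261, 184, 252 and 160.4 nuclear CPM in B patches and 97.5, 52.8, 68.4, 111 and 131 in T patches (1.26 ± 0.29, adjusted p = 0.0224), a call lost without B patch library 1 or 4 or T patch library 3 (adjusted p = 0.064 to 0.0721). Summed over the ribosomal protein regions, B patches held 5776 to 6185 nuclear CPM and T patches 5814 to 6610, and the groups overlapped.

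A further 4 lists gave 2 calls. Ends of replication histones gave 0 of 15 (median 0.19) and those of lncRNA and snoRNA hosts 0 of 25 (0.03), with 1 and 1 called by DESeq2, 2 and 2 at an unadjusted p of 0.05 and smallest adjusted p-values of edgeR of 0.199 and 0.209. Under library size alone these medians turned negative (-0.01 and -0.12). Transcription factors that B and T cells share gave 1 of 33 (-0.10) and immediate early genes 1 of 43 (-0.17), where 2.27% of all regions tested and 0.850% of gene-end regions passed. In lists of this size 1 call is near the share over all regions and is no result about the list. The first lay at the start of the predicted gene Gm16225 and within 1 kb of an end of Runx3, a factor of CD8 T cells (chr4:135120376-135120637). B patches had 7.33, 68.7, 6.86, 2.91 and 10.1 nuclear CPM there and T patches 125, 117, 79.8, 104 and 63.4. B library 2 lay among the T libraries (-2.46 ± 0.61, adjusted p = 0.0362), and the call was lost without B patch library 1, 3, 4 or 5 or T patch library 1, 3, 4 or 5 (adjusted p = 0.0554 to 0.1). The other lay nearest the predicted gene Gm46762 and within 1 kb of Dusp2, a phosphatase of activated lymphocytes (adjusted p = 0.0449). That call held in 1 of the 10 fits with a library left out, the one without T patch library 2 (0.0518 to 0.159 in the others), and was not made with library size alone as the scale.

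Markers of other cells that a tissue patch could hold were looked up at gene ends. Over all protein-coding genes in the table, 44.5% had a gene-end region, and the share for dendritic cell genes was near that. Of 17 macrophage and monocyte genes 1 had a region, of 9 neutrophil genes 0, of 14 erythroid and megakaryocyte genes 2, of 18 genes of stroma and endothelium 2, of 11 dendritic cell genes 5 and of 10 NK cell genes 3, and 0 of their 17 tested regions passed in edgeR (2 at an unadjusted p of 0.05 and 1 in DESeq2, all at NK cell genes). Adgre1, Csf1r, Ly6g, Gata1, Pecam1, Ncr1 and Eomes, which define these cells, had none. Adgre1, a macrophage marker, was however nearest to a called region away from its ends, higher in B patches (log2 fold change 2.65). The part of macrophages in the regions higher in B was not tested. The sums overlapped between B and T patches except for NK genes, where the 4 regions held 20.4 to 49.4 nuclear CPM in B patches and 97.6 to 134 in T patches. Among them Prf1, which encodes perforin and is also used by cytotoxic T cells (chr10:61297384-61297877), had 23.9, 22.5, 3.17, 5.24 and 13 in B patches and 62.4, 43.5, 56.2, 66.9 and 50.3 in T patches. It did not pass (-2.05 ± 0.57, adjusted p = 0.0639) but did without B patch library 2 or T patch library 2 (adjusted p = 0.0417 to 0.0446). At 100 nuclei the 4 regions held 0 to 58.1 in B and 0 to 405 in T libraries. The part of NK cells in the regions higher in T was not tested.

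Most calls over a promoter window lay in the group of lowest CpG content. Among the 7297 tested regions that overlapped the promoter window of their start, cut into 4 equal groups by the ratio of observed to expected CpG, 37 of 1825 passed in the lowest group (2.03%), then 7 of 1824 (0.384%), 8 of 1824 (0.439%) and 3 of 1824 (0.164%). Of the 37 calls in the lowest group, B patches were higher at 16 and T patches at 21. The median ratio was 0.450 for 26 regions called toward B, 0.345 for 29 called toward T and 0.810 for the 7242 not called. With all tested regions within 1 kb of a start, a set added after seeing the data, the shares were 1.93%, 0.315%, 0.354% and 0.197%. Since a promoter window covers only part of the gene-end regions (7417 of 13600), the description holds for those alone and is void as a check on all of them. The groups also differed in level, from 35.0 nuclear CPM in patches in the lowest to 60.5 in the highest, and in width, from 311 to 466 bp.

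Motifs of lymphocyte factors were counted in the windows of called regions. CAGGTG, the E-box that E2A binds, was found in 9 of the 26 windows called toward B and 7 of the 29 called toward T. It was in 20.2% of all windows and 16.6% of the windows of regions not called. AGGAAGT, an ETS site of lymphoid type without CpG, was found in 3 of 26 and 6 of 29. It was in 9.35% of all windows and 9.42% of those of regions not called. CCGGAAGT was found in 0 of 26 and 0 of 29, where 3.89% of all windows and 9.49% of those over a gene-end region hold it. ATGCAAAT, the octamer bound by Pou2f factors and their coactivator Pou2af1, was found in 2 of 26 and 0 of 29. It was in 1.74% of all windows and 1.35% of those of regions not called. Both strands were searched, AGGAAGT and CCGGAAGT cannot match the same bases in full, and no test was made over windows.

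**Figure D5:**
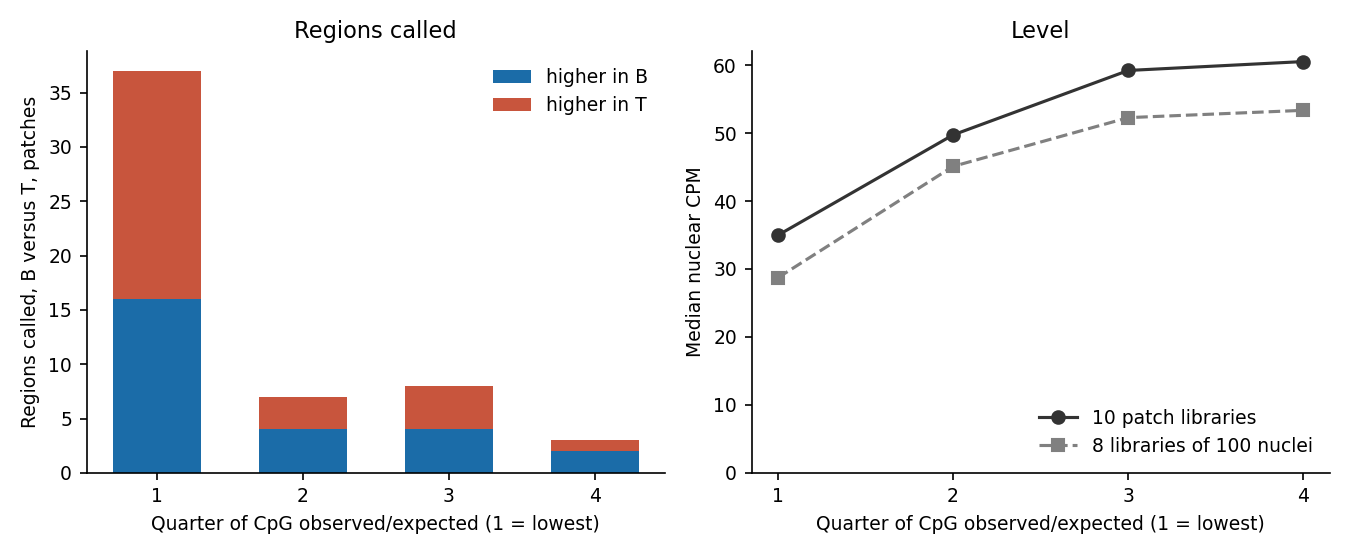
Gene-end regions over a promoter window, cut into 4 groups of equal number by the ratio of observed to expected CpG of that window (1 is the lowest). Left, number of regions called between B and T patches, by direction; right, median nuclear CPM over the 10 patch libraries and over the 8 libraries of 100 nuclei. The lowest group holds 37 of the 55 calls and has the lowest level.

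Genes with a called region away from their ends were looked up at their ends. Of 375 genes nearest to such a region (within 50 kb), 202 also had a tested gene-end region, and at 18 of these (8.91%) an end was called too, where an end was called at 127 of all 11608 genes with a tested gene-end region (1.09%). Both calls come from the same 10 libraries, so the 18 are a description with no test. At Tcf7 the largest log2 fold change away from its ends was -3.23 and that at its end -2.51 (adjusted p = 0.216). Where a gene had more than 1 end region, the one of smallest p is given. At Satb1, a chromatin organizer, the 2 values were -5.54 and -0.60 (adjusted p = 0.882). That end region lay 585 bp from the start, and the one over the start had 0.08 (adjusted p = 0.969). At Tnfrsf13c, the receptor for the B cell survival factor BAFF, the values were 5.57 and 1.95 (adjusted p = 0.152). At Cd79b, the partner of Cd79a, a region 989 bp outside an end had 3.06 against 2.99 away from the ends, but did not pass (adjusted p = 0.175). Its region over an end had 1.30 and the remaining one 1.44, and neither passed (adjusted p = 0.237 and 0.250). At Als2cl, Ms4a1, Cd74, H2-Aa, Plek and Sema4f both kinds of region were called. Lef1 and Fcrla had a called region away from their ends and no region at them. These genes were named after their values were seen, and the difference between the 2 kinds of region in one gene was not tested.

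At 100 nuclei no gene end was called between B and T when the 8 libraries were fitted alone. Of 13183 tested 0 passed in edgeR, where 0.0156% of all regions tested passed, all of them mitochondrial, and 0 passed in DESeq2. In the joint edgeR fit of all 18 libraries, which share 1 estimate of the spread, 2817 passed (1889 higher in B, 928 in T), where 27% of all regions tested passed. At an unadjusted p of 0.05 the counts of the 8 libraries alone were 611 (4.63%, where 5.5% of all regions tested passed) in edgeR and 917 in DESeq2. As a group, the regions called in patches were also apart at 100 nuclei. Those higher in B held 0.688%, 0.666%, 0.613%, 0.661% and 0.542% of nuclear counts in B patch libraries 1 to 5 and 0.173%, 0.159%, 0.135%, 0.156% and 0.189% in T patch libraries, which is what chose them. In the libraries of 100 nuclei, which the choice did not use, they held 0.562%, 0.814%, 0.579% and 0.493% in B libraries 1 to 4 and 0.162%, 0.235%, 0.234% and 0.246% in T libraries 1 to 4. Every B library lay above every T library.

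The regions higher in T did the same. At 100 nuclei they held 0.115%, 0.0705%, 0.116% and 0.0841% of nuclear counts in B libraries 1 to 4 and 0.360%, 0.331%, 0.207% and 0.283% in T libraries 1 to 4, again with no overlap. Their means were 0.0963% ± 0.0227 for B and 0.295% ± 0.0672 for T libraries (SD, n = 4). Of the 58 regions higher in B that had reads at 100 nuclei 54 had a log2 fold change toward B there, and of the 48 higher in T with reads 39 had one toward T. Over all 13183 tested gene-end regions the log2 fold changes at 100 nuclei leaned toward B (median 0.12, quartiles -0.77 and 1.87). The counts of signs were not tested. Cr2 had 2.59, 77.5, 101 and 153 nuclear CPM in B libraries 1 to 4 and no read in T, Thy1 had no read in any of the 8, and Themis had 50.0 in 1 B library and 72.2, 90.9 and 169.6 in 3 T libraries. At this depth 1 count was worth 1.40 to 4.14 nuclear CPM.

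With TMM scaling, every gene end that passed between patches and 100 nuclei was higher in patches, the way the median of all regions lay. The median log2 fold change over all regions tested was 1.33 in B and 2.07 in T, and 0.69 and 1.48 with RLE scaling. In B cells 1629 of 13183 passed (12.4%, where 13.9% of all regions tested passed), all higher in patches, and in T cells 3173 (24.1%, where 28% of all regions tested passed), all higher in patches. At an unadjusted p of 0.05 the counts were 3443 and 4094 (26.1% and 31.1%, where 30% and 37.4% of all regions tested passed). Of the 1629 and the 3173, 1463 (89.8%) and 2921 (92.1%) had no read in the 4 libraries of 100 nuclei of that type. The B count was 1039 with RLE scaling (1038 higher in patches, 1 higher at 100 nuclei), 0 without B patch library 1, 3 or 5, and 0 in the joint fit of 18 libraries. The T count was 2313 to 4370 with 1 library left out, and 1 T call with RLE scaling and 3 in the joint fit were higher at 100 nuclei. With a term for the replicate number in the fit, the B count and the T count were both 0. The largest fitted folds in B were at Fam111a, an antiviral protease, Mcur1, a regulator of mitochondrial calcium uptake, Lsm6, part of an RNA-processing ring, and Xpr1, a phosphate exporter. Their pooled levels of 92.8 to 111 nuclear CPM in B patches were at least 46.8 to 56.0-fold above the 3 counts that 0 reads over the 4 libraries allow by counting error alone. In T they were at Mios, a subunit of the GATOR complex, Eef2kmt, a methyltransferase of an elongation factor, Dut, the dUTPase, and Irak4, a kinase below Toll-like receptors, at least 67.0 to 104-fold above that limit. At equal depth, gene-end regions with reads at 100 nuclei had a median of 19 to 66 counts by library. The true limit can therefore be higher, and the folds lower.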

How the data were processed

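The authors deposited raw counts of ATAC-seq reads per accessible region, with 1 region list for all 18 libraries and mm10 coordinates, per the file headers. The submitters' processing notes name MACS2 2.2.7.1, Bowtie2 2.4.5, SAMtools 1.14, Picard, Trimmomatic 0.36, deepTools 3.5.2, R 4.1.0 and bcl2fastq 2.20. What each did, whether duplicate reads were removed and whether read ends were shifted is not given in these sources. No molecular identifiers are named, so 1 molecule may have been counted more than once.

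Total counts ran from 319481 to 7343204 per library. Levels are counts per 1000000 nuclear counts. Regions were assigned to gene ends within 1000 bp with the gene table, and strand and start came from RefSeq's promoter windows, which cover 82.1% of gene-end regions and none on chromosome 18. Counts of B and T patches, B and T captures of 100 nuclei, and patches against 100 nuclei in each cell type were tested with edgeR 4.0.16 in R 4.3.3 (TMM scaling, quasi-likelihood F-test, low-count filter at 10, Benjamini-Hochberg adjustment over all 25712 regions, threshold 0.05). The standard error of a fold change is its size divided by the root of F. DESeq2 1.42.0, other scalings, filters, windows and leaving out each library were alternatives, and the tests were checked on simulated data. To compare regions with reads, libraries were thinned to 241786 nuclear counts. The permutation tests planned for the shares are not given, and those values are described by their spread.

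Same-numbered libraries were not paired in the main fits. Region by region, their deviations from group means correlated by -0.02 to 0.05. Library 2 nevertheless had the lowest gene-end share in B patches (66.3%) and in T patches (67.4%). Whether same-numbered libraries share a batch was not tested. Named regions are the 10 of highest level, the 8 largest changes each way among calls at or above the median abundance with groups apart at genes that have a name of their own, up to 4 per list by p, the region nearest each of 15 marker genes, and the largest changes with capture size; a part of them is printed. The regions and gene lists were chosen with earlier results of these data known. Bounds against 0 reads use 3 counts over the group and cover counting error only. Some named items are not reported here.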

Additional observations from a re-analysis of the deposited data

Results flagged for a closer look

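In groups of 4 or 5 libraries, a library was singled out when its gap to the nearest other was too large a part of the group's range for Dixon's 95% limit, which chance does in about 1 in 20 groups. Of the 16 groups of shares tested 1 had such a library, and of the 60 groups of regions 6 had one. T patch library 2 had reads at 74.2% of gene-end regions at equal depth, where the others had 87.9% to 90.7%. The same library was high at Cd8b1 (133 nuclear CPM, others 51.7 to 66.6) and at the region outside Irgc1 (99.9, others 25.6 to 40.5). B patch library 2 was high at Bcl11b (42.4, others 11.1 to 13.7) and at the start of Gm16225 near Runx3 (68.7, others 2.91 to 10.1). T patch library 5 was high at Ebf1 (46.4, others 3.48 to 14.4), and T patch library 4 at Napsa (52.5, others 20.7 to 26.1).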

How the results depend on the processing

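Counts of called gene-end regions moved most. Between B and T patches 112 became 468 in DESeq2 (229 higher in B, 239 in T), 0 in a joint fit of all 18 libraries, and 53 to 149 with 1 library left out. Without both libraries numbered 2, chosen after seeing the data, they were 252. Between B and T at 100 nuclei the joint fit gave 2817 where the separate fit gave 0, and leaving out 1 library gave 0 to 0. For patches against 100 nuclei in B, 1629 became 1039 with RLE scaling, 0 in the joint fit and 0 to 2324 with 1 library left out. In T, 3173 became 2313 to 4370 with 1 library left out. With the replicate block the patch comparison of B and T gave 49 (31 higher in B, 18 in T), that at 100 nuclei 0, and the comparisons of capture size 0 in B and 0 in T. Of the B and T patch pairs, 2 of 5 correlated best with their own number, and a batch shared by same-numbered libraries was not tested. The cause of these moves was not tested. With RLE scaling, library size alone, no low-count filter, mitochondrial regions left out, windows of 500 bp or 2 kb, or protein-coding genes only, the patch count of B against T stayed within 1.5 times of 112.

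With all counts, mitochondrial ones included, as the denominator, the gene-end share differed by -6.45 points between B and T patches, -6.20 at 100 nuclei, and by 8.37 (B), 8.62 (T) and 8.49 (both) between patches and 100 nuclei. With at least 2 reads asked of a region, the gap between gene ends and other regions at equal depth was 0.384 points wider in B patches than in B captures of 100 nuclei, where with 1 read patches minus 100 nuclei was -4.87 points. Of the other values recomputed for single regions and shares, 2813 kept their side, 651 lost the call, 27 gained it and 5 moved.

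The limits are those of depth and design. At 100 nuclei 1 count is worth more than 1 nuclear CPM and most regions lack reads, so an absent call there is not an absent difference. Patches and 100 nuclei differ in nuclei, depth and how they were cut, which cannot be told apart. No library is tied to an animal. The strand was missing for 17.9% of the gene-end regions, and CpG content was read for 7417 of 13600.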
